A study of Rattus norvegicus with 8 samples.

Results

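Heat shock proteins and their partner proteins (cochaperones) were examined in the pituitaries of lactating Wistar dams, taken on postpartum day 7. One group of dams had been exposed to TCDD (2,3,7,8-tetrachlorodibenzo-p-dioxin, n = 4) and the other was the control (n = 4). TCDD is a dioxin that acts through the aryl hydrocarbon receptor (AhR). Both groups were lactating dams of the same strain, and the sources used here state no dose, route or time of exposure, no age of the dams and no vehicle. Each sample was hybridised alone, in 1 colour, to a whole-genome rat array. The members are the genes whose name in the array's design belongs to the Hspa, Hspb, Hspd and Hspe classes, the Dnaj (HSP40) family, the Bag1 to Bag6 genes, the Cct2 to Cct8 chaperonin genes, Stip1 or the heat shock factors. HSP90 genes and the endoplasmic reticulum chaperones Hspa5, Dnajb9, Dnajb11 and Dnajc3 were left out. This gave 85 genes, read by 105 probes, of 26269 gene names on the arrays. Of these names, Hspc159, Hsf2bp and Hspb11 match by their letters only. Hspb11 is an older name of Ift25, a protein of intraflagellar transport, and is not counted among the small HSPs here.

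Chaperones bind other proteins while they fold. HSP70 proteins hold short hydrophobic stretches and release them in a cycle driven by ATP, J-domain proteins of the Dnaj family deliver the client and start the cycle, BAG proteins release the nucleotide, and small HSPs hold unfolded proteins without ATP. The transcription factor HSF1 raises a subset of these genes when unfolded protein accumulates, by binding heat shock elements, which are inverted repeats of a short unit, in their promoters. The unliganded AhR itself is kept in the cytosol by an HSP90 complex. The pituitary of a lactating dam secretes large amounts of prolactin, a protein that needs folding before release.

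The heat shock elements are shown first. Members that later moved together between arrays include known HSF1 targets, and a part of HSF1 in this was not tested. Promoter windows (250 bases before to 50 after the gene start, RefSeq, GRCr8) were found for 64 of the 85 members. A gene with several windows was counted once, as holding a motif where any of them did. The letters searched were the palindromic 2-unit motifs GAANNTTC and TTCNNGAA, and a 3-unit element, in which one of each overlaps the other by 3 letters. A 2-unit motif occurred in the promoters of 21 of 64 members (32.8%) and of 4573 of 27457 genes (16.7%). A 3-unit element occurred in those of 5 members (7.81%) and of 218 of all genes (0.794%). The 5 were those of Hspa8, the constitutive cytosolic HSP70, of Hspd1 and Hspe1, the mitochondrial HSP60 and its HSP10 lid, of Dnaja1, a cytosolic J-domain protein, and of Cct4, a subunit of the cytosolic chaperonin. In the last pair, Dnaja1 and Cct4, the element reaches past the start, so that at least part of it is transcribed, and is not printed. Matching letters are a description of the sequence and not a measured binding site. The windows below are 60 bases long, 5′ to 3′ on the gene's strand, with the element in capitals.
Hspa8 first element, chr8:50080277-50080336, plus strand: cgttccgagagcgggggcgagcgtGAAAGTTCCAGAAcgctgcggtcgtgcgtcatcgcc
Hspa8 second element, chr8:50080435-50080494, plus strand: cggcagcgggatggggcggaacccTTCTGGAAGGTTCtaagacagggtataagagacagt
Hspe1, chr9:64084241-64084300, plus strand: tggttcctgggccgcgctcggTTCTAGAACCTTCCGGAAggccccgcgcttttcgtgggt
Hsph1, chr12:10427308-10427367, plus strand: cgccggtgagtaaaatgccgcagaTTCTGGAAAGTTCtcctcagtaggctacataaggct

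Hspd1 and Hspe1 start head to head, and the 18 letters in capitals for Hspe1 are, on the other strand, the element in the Hspd1 window. That element ends 48 bases before the Hspe1 start. The elements of Hspa8 end 201 and 43 bases before its start. Hsph1, an HSP110 that releases the nucleotide from HSP70, is not a member by name and is shown because its level followed that of Hspa1b closely. The element of Hsph1 does not stand for all outside genes that did so. Ahsa2 and Ppid, also not members by name, followed Hspa1b as closely and had neither motif nor element in their windows. Chordc1, which followed Hspa1b less closely, held an element in its window. The AhR core GCGTG, searched on both strands, was in the promoters of 35 of 64 members (54.7%) and of 8890 of all genes (32.4%). These shares too are counts of letters and not of binding sites. All genes with a promoter entry were counted, tested here or not, and base composition was not matched. No promoter entry was found for Hspa1b.

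The arrays were of like quality. The processed intensity at the 75th percentile, used for scaling, was 765 to 932. The share of spots well above background was 71.1% to 73.9%. All 4 control arrays were on 1 slide and all 4 TCDD arrays on another, so slide and exposure cannot be told apart in any comparison between the groups. Of 5 AhR target genes tested, 2 were called, Cyp1a1 and Cyp1a2 (limma adjusted p = 0.028 and 0.029). They and Ahrr were well above background on 4 TCDD and 0 control arrays. These genes thus passed the detection filter only through the TCDD arrays. Nqo1 and Cyp1b1, above background on all arrays, were higher by 1.09 and 0.36 (adjusted p = 0.18 and 0.32), and the groups overlapped for Cyp1b1. The list's mean centred level was −1.34 to −0.84 in the control arrays and 0.6 to 1.53 in the TCDD arrays. This serves only as a check of the labels. A list of 8 endocrine pituitary markers was detected in full and none was called. All 5 red cell genes tested had higher means in the TCDD group (median log2 difference 0.77, none called). Their mean centred level was −0.73 to 0.22 in control and −0.0011 to 0.72 in TCDD arrays, and the part of blood in the results was not tested. In whole tissue, fewer cells of a type and less RNA per cell cannot be told apart.

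No member differed between the groups at an adjusted p under 0.05. Levels are log2 processed intensities relative to the array's 75th percentile, and differences are TCDD minus control means on that scale, tested with limma and Benjamini-Hochberg adjustment over all 17364 genes that were well above background on at least 4 arrays. Of the members, 79 of 85 passed that filter. Dnajb7, Dnajc5b, Dnajc5g, Hsf2bp, Hspa1l and Hspb7 did not. Over all genes, 10 were called higher (0.0576%) and 4 lower (0.023%), against 0 and 0 members. At an unadjusted p under 0.05, 1 member was higher (1.27%) against 7.76% of all genes, and 4 were lower (5.06%) against 2.95%. The 4 TCDD values lay above the 4 control values for 0 members (5.18% of all genes) and below them for 1 member (1.27%, against 1.91%).

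The differences of the members were small. Their median was 0.018 and that of all genes 0.02, and 46 of 79 members (58.2%) had a higher mean with TCDD, against 56.4% of all genes. The median size of the difference was 0.066 over the members and 0.094 over all genes, and the differences ran from −0.35 to 0.52. No member passed a 1.5-fold difference, whereas 432 genes (2.49%) did. For 70 of the 79 tested members the 95% confidence interval of the difference lay within 1.5-fold either way, and so did that of 13738 of all 17364 genes. Larger differences were thus outside the interval for most members, as for most genes. The smallest adjusted p of any member was 0.39.

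**Figure D1:**
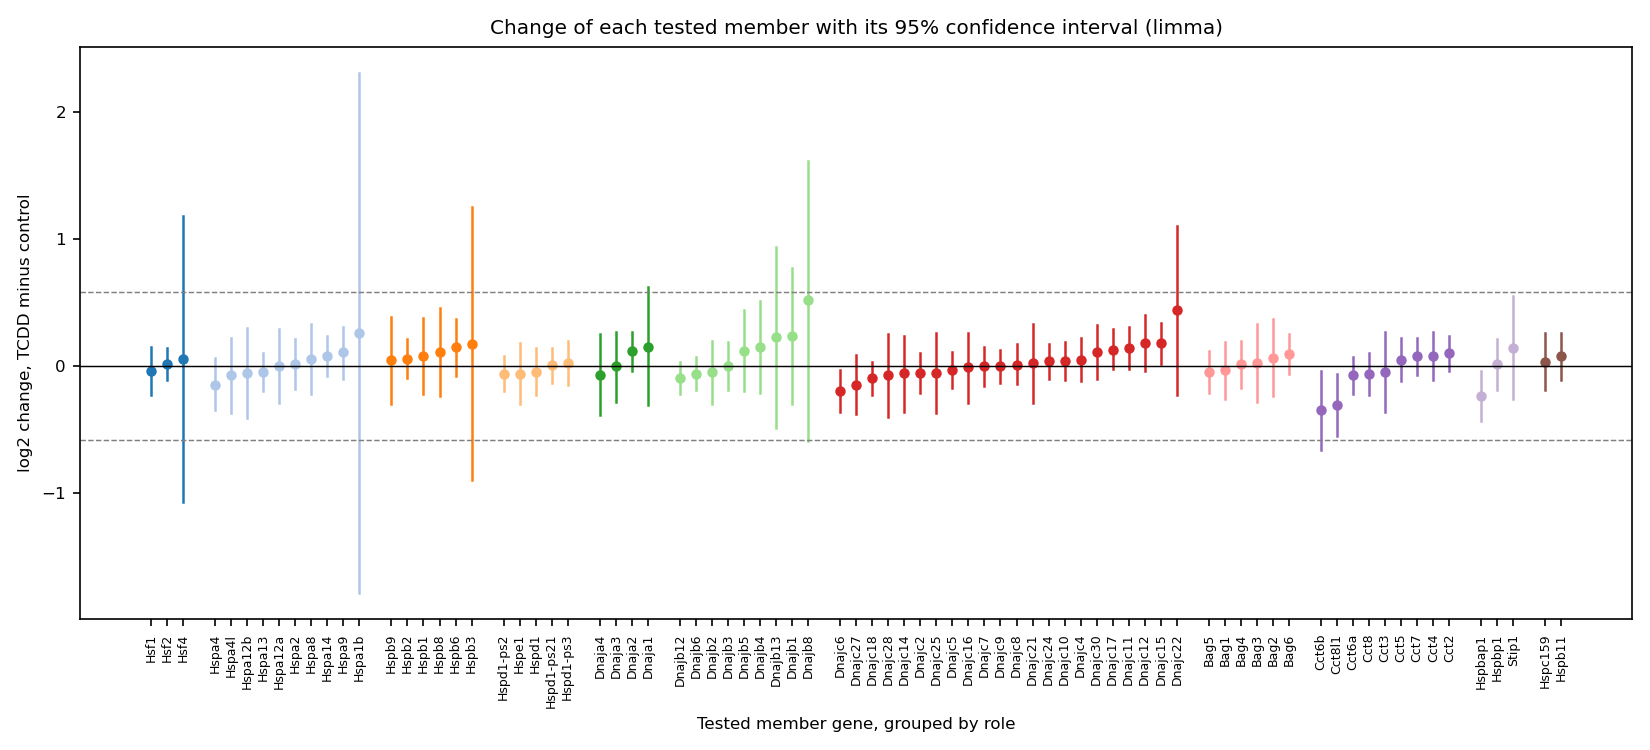
Difference of each of the 79 tested members (vertical axis, log2, TCDD minus control, 4 arrays each) by role (horizontal axis); points are differences, bars their 95% confidence intervals from limma, and dashed lines mark 1.5-fold. All points lie between −0.35 and 0.52, and the widest interval, from −1.79 to 2.31, is that of Hspa1b.

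The transcription factors came first among the roles. Hsf1, the main activator of the heat shock response, was at 0.16, 0.15, 0.25 and 0.36 in the control arrays and at 0.044, 0.30, 0.28 and 0.15 in the TCDD arrays. The groups overlapped, with a difference of −0.038 (SE 0.081, limma adjusted p = 0.92). Hsf2, a factor active in development, was at −0.64, −0.56, −0.62 and −0.68 in control and at −0.57, −0.58, −0.65 and −0.64 in TCDD arrays, and its difference of 0.017 (SE 0.055) turned negative under 3 other scalings and in the deposited table. Hsf4, known for its role in the lens, was dim, and its level ranged over 5.45-fold because control 4 stood at −3.19 while the other 7 arrays lay between −5.64 and −4.63. Its difference was 0.052 (SE 0.49), and 0.6 without control 4.

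Among the HSP70 class 10 of 11 members were tested, 5 with a higher and 5 with a lower mean. Hspa1b, the stress-inducible HSP70, was read by a probe at rn4 chr20:3957864-3957923. Its level was −3.42, −2.77, −2.89 and −0.77 in the control arrays. In the TCDD arrays it was −2.85, −1.56, −0.21 and −4.20. Control 4 and TCDD 3 were the highest, TCDD 2 lay between them and the other arrays, and TCDD 4 was the lowest, so the groups overlapped. The difference was 0.26 (SE 0.89, 95% confidence interval −1.79 to 2.31, adjusted p = 0.95 by limma, exact two-sided permutation p = 0.86 over 70 assignments of the arrays, of which the smallest possible is 0.029). The level ranged over 15.9-fold between arrays. Without TCDD 3 the difference was −0.41, the opposite direction. A second Hspa1b probe was well above background on only 1 array. Hspa1a is a near-identical neighbour of Hspa1b, and whether this probe reads both is uncertain.

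Hspa8, the constitutive HSP70 whose promoter elements are printed above, was at 6.30, 6.50, 6.33 and 6.77 in control and at 6.41, 6.59, 6.71 and 6.43 in TCDD arrays. The difference was 0.058 (SE 0.12, adjusted p = 0.91 by limma), and 4 probes of this gene gave the same sign. The same control 4 and TCDD 3 arrays held the highest values. Hspa9, the mitochondrial HSP70, was at −0.37, −0.35, −0.39 and −0.068 in control and at −0.31, −0.20, −0.12 and −0.13 in TCDD arrays. Its difference was 0.11 (SE 0.089, adjusted p = 0.74). Hspa4, a nucleotide exchange factor of the HSP110 type, had the lowest difference of the class, −0.15 (SE 0.091, adjusted p = 0.63), with control values from 1.2 to 1.43 and TCDD values from 0.98 to 1.31.

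All 6 tested small HSPs had a higher mean with TCDD, by a median of 0.096, and none was called. Under normexp background correction with quantile normalization, under quantile normalization and in the deposited table, 5 of the 6 were higher, and under median centring 6. Hspb1 (HSP27), which holds unfolded protein and binds actin, was at 0.020, 0.054, −0.31 and 0.0075 in control and at −0.0069, 0.012, 0.32 and −0.23 in TCDD arrays. Its difference of 0.081 (SE 0.13, adjusted p = 0.88 by limma) was −0.0042 without control 3 and −0.017 without TCDD 3. Hspb3, a muscle form, had the highest difference of the small HSPs, 0.17 (SE 0.47), on a dim probe that ranged over 3.55-fold between arrays, and it was −0.16 without control 4.

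The 5 members of the mitochondrial chaperonin role differed by −0.059 to 0.023. Hspd1 (HSP60) was at 2.93, 3.01, 2.94 and 3.11 in control and at 2.79, 3.05, 3.06 and 2.92 in TCDD arrays, a difference of −0.044 (SE 0.081, adjusted p = 0.90 by limma). Its partner Hspe1 (HSP10), which shares the promoter stretch printed above, was at 3.83, 4.07, 4.04 and 4.14 in control and at 3.86, 4.18, 4.00 and 3.80 in TCDD arrays. The difference was −0.059 (SE 0.10, adjusted p = 0.89). The other 3 members of this role are pseudogenes of Hspd1, whose probes may also read Hspd1 itself.

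Among the J-domain proteins the 4 Dnaja members split into 2 higher and 2 lower, the 9 tested Dnajb members into 5 and 4, and the 22 tested Dnajc members into 12 and 10. Dnajb1 (HSP40), the inducible partner of HSP70, was at 0.58, 0.89, 0.75 and 0.87 in control and at 0.77, 1.19, 1.62 and 0.45 in TCDD arrays. TCDD 3 was the highest and TCDD 4 the lowest array, and the difference was 0.24 (SE 0.23, adjusted p = 0.78 by limma). Dnaja1 was at 2.68, 3.06, 2.76 and 3.30 in control and at 2.90, 3.20, 3.57 and 2.76 in TCDD arrays, a difference of 0.15 (SE 0.20, adjusted p = 0.84). Dnajc7, a J-domain protein that also binds HSP90, differed by −0.0019 (SE 0.067), with control values between −0.30 and −0.089 and TCDD values between −0.25 and −0.099.

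Dnajb12, a J-domain protein of the endoplasmic reticulum membrane, was the single member whose groups did not overlap. Its control values were 0.20, 0.18, 0.15 and 0.19 and its TCDD values 0.11, 0.089, 0.0081 and 0.13. The difference was −0.094 (SE 0.053, limma adjusted p = 0.59, exact permutation p = 0.029, the smallest that 70 assignments give). That permutation p follows from the lack of overlap for which the gene was named and is no further test. Dnajb8, a testis form, had the highest difference of all members, 0.52 (SE 0.48, adjusted p = 0.77), but was well above background on only 2 arrays of each group. Dnajc22 was at −3.07, −2.78, −2.39 and −3.17 in control and at −1.58, −2.79, −2.66 and −2.63 in TCDD arrays, and its difference of 0.44 (SE 0.29, adjusted p = 0.66) was 0.16 without TCDD 1.

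The 6 BAG members differed by −0.044 to 0.093. Bag3, the stress-inducible BAG protein of chaperone-assisted autophagy, was at 1.35, 1.42, 1.5 and 1.93 in control and at 1.47, 1.65, 1.71 and 1.46 in TCDD arrays. Its difference of 0.021 (SE 0.13, adjusted p = 0.98 by limma) was −0.017 under median centring. Bag1, an exchange factor that links HSP70 to the proteasome, differed by −0.035 (SE 0.097), with TCDD 4 at 0.083 and the other 7 arrays between 0.33 and 0.52. Bag6, which guards membrane proteins before insertion, had the highest difference, 0.093 (SE 0.067).

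Of the 9 CCT members, subunits of the ring that folds actin and tubulin or relatives of them, 4 were higher and 5 lower, with a median of −0.045. Cct2 had the highest difference, 0.10 (SE 0.061, limma adjusted p = 0.62, exact permutation p = 0.057), with control values of 0.91, 1.04, 0.89 and 1.00 and TCDD values of 1.01, 1.05, 1.13 and 1.05. The lowest was that of Cct6b, a testis form of a CCT subunit, at −0.35 (SE 0.14, adjusted p = 0.43), on a dim probe that was well above background on 3 of 4 TCDD arrays. Stip1 (HOP), which hands clients from HSP70 to HSP90, was at −0.18, −0.12, −0.32 and 0.29 in control and at −0.17, 0.034, 0.48 and −0.093 in TCDD arrays, and differed by 0.14 (SE 0.18, adjusted p = 0.83).

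The 5 members with an unadjusted p under 0.05 were listed after their values were seen. Cct6b is given above. Cct8l1, another dim relative of the CCT subunits, differed by −0.31 (SE 0.11, adjusted p = 0.39 by limma). Hspbap1, a protein that binds HSP27, was at 1.14, 1.33, 1.03 and 1.25 in control and at 0.93, 0.97, 1.07 and 0.83 in TCDD arrays, a difference of −0.24 (SE 0.085, adjusted p = 0.39). Dnajc6 (auxilin), which uncoats clathrin vesicles with HSP70, was at 0.86, 0.77, 0.83 and 0.69 in control and at 0.50, 0.65, 0.52 and 0.70 in TCDD arrays, a difference of −0.20 (SE 0.071, adjusted p = 0.40). Dnajc15, a J-domain protein of the mitochondrial inner membrane, was the single one with a higher mean, by 0.18 (SE 0.071, adjusted p = 0.44). The groups of each of the 5 overlapped.

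Where the members did vary was between single arrays within both groups. The spread of Hspa1b between arrays of a group, an SD of 1.46, exceeded that of 99.8% of all genes, and for Dnajb1 (SD 0.37) and Dnaja1 (SD 0.32) the percentiles were 88.4 and 84.7. The median member had an SD of 0.12, against 0.15 for all genes, and Dnajb12 (SD 0.041) and Hsf2 (SD 0.048) were among the steadiest genes on the arrays, at percentiles 1.21 and 2.42.

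**Figure D2:**
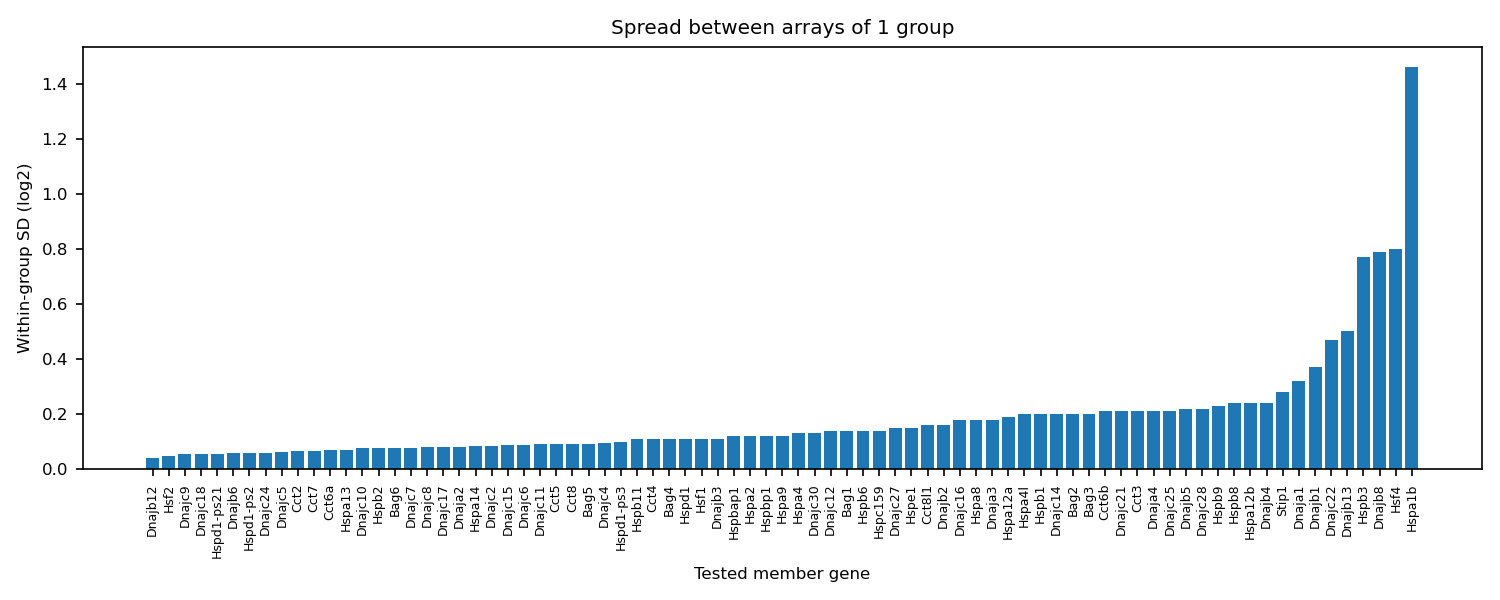
Within-group standard deviation (vertical axis, log2) of each tested member over 4 control and 4 TCDD arrays, as bars from 0, in rising order. Hspa1b stands at 1.46, Hsf4, Dnajb8 and Hspb3 follow on dim probes at 0.80, 0.79 and 0.77, and the median of the members is 0.12.

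The members whose level followed Hspa1b over the 8 arrays were sought next, a comparison chosen after the values were seen. Of 78 other members 8 had a Pearson r of 0.8 or more (10.1% of the 79 tested), against 464 of all genes (2.67%). They were Dnajb2, Dnaja1, Dnajc5, Dnajb1, Hspa8, Stip1, Bag3 and Cct3. The median r was 0.44 over the members and 0.07 over all genes, and r was below 0 for 23 members. Permutation p-values were adjusted over 117 relations, those of the 78 members and of 39 related chaperone genes. Each group has only 4 arrays, too few for a correlation within it, and all values of an array share its library and scaling.

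Dnaja1 had r = 0.94 (exact permutation p = 0.00032, adjusted 0.0094) and rho = 0.98 (adjusted 0.012), and r was 0.82 without control 4 and TCDD 3, the arrays farthest from the Hspa1b median. Dnajb2, a J-domain protein rich in neurons, had r = 0.96 (exact permutation p adjusted 0.016) and rho = 0.86 (adjusted 0.11), with r = 0.90 without those arrays. It was at 1.29, 1.30, 1.31 and 1.57 in control and at 1.26, 1.40, 1.53 and 1.1 in TCDD arrays, with a difference of −0.046 (SE 0.11). These were the 2 members that passed the adjustment on r, and Dnaja1 was the 1 that passed on rho.

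Dnajb1 had r = 0.87 (exact permutation p adjusted 0.051) and rho = 0.93 (adjusted 0.052), and r was 0.98 without both arrays. Dnajc5 (cysteine string protein of secretory vesicles) had r = 0.90 (adjusted 0.051) and rho = 0.90 (adjusted 0.059), with 0.83 without them, over a range of only 1.13-fold. Its r was 0.68 with normexp and quantile normalization, 0.76 with quantile normalization, 0.67 with median centring and 0.74 in the deposited table, and it differed between the groups by −0.030 (SE 0.061). For the other 4 the relation weakened without control 4 and TCDD 3: Hspa8 went from 0.87 to 0.63, Stip1 from 0.86 to 0.38, Bag3 from 0.84 to 0.72 and Cct3 from 0.82 to 0.54, so it rested in part on those arrays. Their rho values were 0.83, 0.74, 0.76 and 0.83, with exact permutation p adjusted to 0.12, 0.22, 0.20 and 0.12, and for r to 0.068, 0.070, 0.073 and 0.11. By rank, 2 members not chosen on r were as close to Hspa1b as Dnajc5. Cct4 had rho = 0.90 and Dnajc16, in the opposite direction, rho = −0.90 (exact permutation p adjusted 0.059 for each). Their r was 0.71 and −0.76.

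Taking Hspa1b and these 8 members as 9 genes, control 4 was the highest array for 5 and TCDD 3 for 4, and control 1 and TCDD 4 were each the lowest for 4. The median level relative to each gene's own mean was −0.21, −0.01, −0.14 and 0.27 in the control arrays and −0.12, 0.08, 0.20 and −0.13 in the TCDD arrays. These genes were chosen for following Hspa1b, so the order of the arrays describes the choice and adds no support to it. The sizes differed widely between genes: 15.9-fold between the highest and lowest array for Hspa1b, 2.26-fold for Dnajb1, 1.86-fold for Dnaja1, 1.74-fold for Stip1, 1.49-fold for Bag3 and 1.38-fold for Hspa8. Hsf1 had r = 0.72 and rho = 0.57 (exact permutation p adjusted 0.20 and 0.38), and Hsf2 r = −0.30 and rho = −0.24 (adjusted 0.62 and 0.75).

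**Figure D3:**
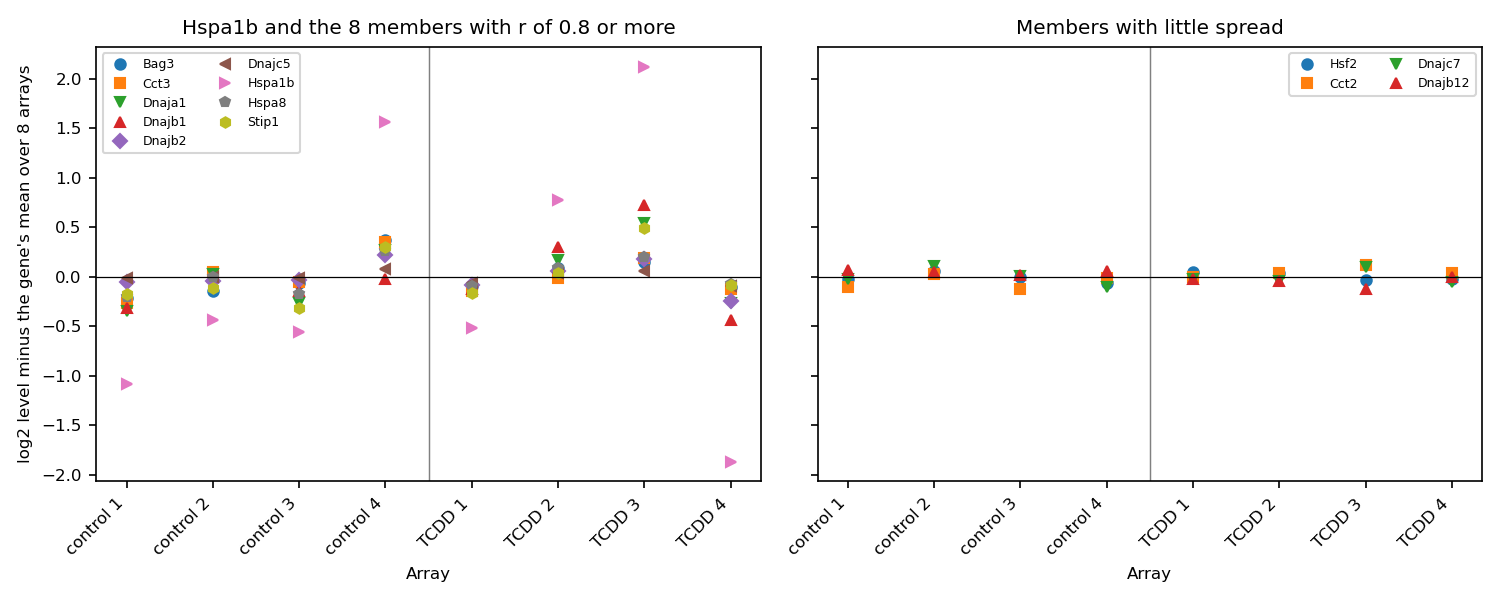
Level of each gene minus its own mean over the 8 arrays (vertical axis, log2) by array (horizontal axis, control left and TCDD right of the grey line); left, Hspa1b and the 8 members that followed it, right, 4 steady members. Control 4 and TCDD 3 carry the high values on the left, up to 1.56 and 2.12 for Hspa1b.

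Levels of tissue marker lists were set beside this pattern. Immediate early genes, which rise within minutes of handling tissue, had r = 0.30 with Hspa1b. Their mean centred levels were −0.019, −0.30, 0.50 and 0.26 in the control and −0.44, 0.33, −0.11 and −0.22 in the TCDD arrays. Control 3 was the highest array of this list, followed by TCDD 2 and control 4. The endothelial list had r = −0.75, the stroma and pericyte list −0.69, the posterior lobe and neural list −0.50, the red cell list 0.42 and the endocrine list 0.01. On control 4 the posterior lobe list stood at −0.57, against 0.25 to 0.61 on the other control arrays, and the red cell list at 0.22, against −0.73 to −0.63. The endothelial list stood at −0.15 there, against 0.033 to 0.091, and the stroma and pericyte list at −0.25, against −0.031 to 0.065. In the TCDD arrays the posterior lobe list stood at −0.053, −0.49, −0.12 and −0.15, and the red cell list at −0.0011, 0.72, 0.53 and 0.55. The endothelial list stood at 0.11, −0.18, −0.033 and 0.084 in them, and the stroma and pericyte list at 0.27, −0.14, −0.06 and 0.11. TCDD 3 was the highest and TCDD 4 the lowest array for Hspa1b. These are descriptions over 8 arrays, and their part in the pattern was not tested.

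The promoter letters and the pattern were then set side by side. The 5 members with a 3-unit element had r with Hspa1b between 0.68 and 0.94, with a median of 0.72. The 15 with only a 2-unit motif had a median of 0.65 and ran from −0.50 to 0.87. The 39 with neither had a median of 0.14 and ran from −0.76 to 0.96. Dnajb2, Dnajc5 and Cct3 followed Hspa1b and had no motif in the window, which says only that these letters were not in it. Hspd1 and Hspe1, which share an element, had r = 0.72 and 0.68 while their levels ranged over 1.25-fold and 1.30-fold. The median differences between TCDD and control were 0.058, 0.021 and −0.003 in the 3 promoter classes. The first class has only 5 members. Whether the elements play a part in the likeness to Hspa1b was not tested.

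**Figure D4:**
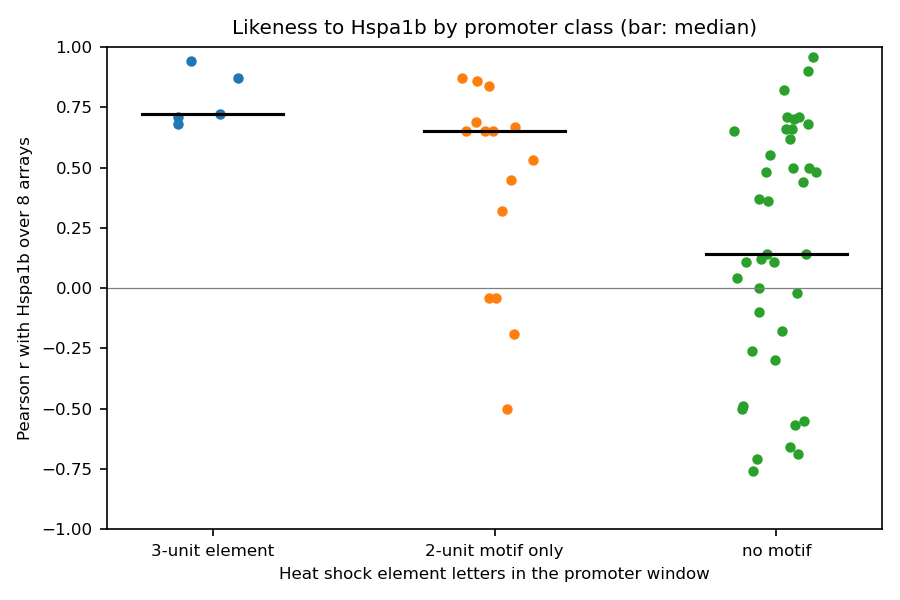
Pearson r with Hspa1b over 8 arrays (vertical axis) of the 59 members with a promoter window and a test, by heat shock element letters (horizontal axis); points are genes, spread sideways at random, and bars are medians. The medians are 0.72, 0.65 and 0.14 from left to right, and the class without a motif runs from −0.76 to 0.96.

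Chaperone genes outside the name rule, 39 on the arrays and all tested, gave no call between the groups. None had a limma adjusted p under 0.05, against 0.0576% of all genes called higher and 0.023% called lower. None had an unadjusted p under 0.05, against 7.76% of all genes higher and 2.95% lower. The groups overlapped for each, whereas all TCDD values lay above the control values for 5.18% of all genes and below for 1.91%. Of the 39, 19 were higher and 20 lower, and the differences ran from −0.35 to 0.19. The smallest p was that of Trap1, the mitochondrial HSP90, at −0.13 (SE 0.057, adjusted p = 0.47). Fkbp5, a glucocorticoid-induced HSP90 cochaperone, had the lowest difference, −0.35 (SE 0.16, adjusted p = 0.49), with control values of 1.29, 1.33, 1.46 and 1.15 and TCDD values of 0.99, 1.1, 1.25 and 0.49. Cryab, a small HSP of lens and muscle, had the highest, 0.19 (SE 0.099). The endoplasmic reticulum chaperones Hspa5 and Hyou1 differed by −0.17 (SE 0.13) and −0.19 (SE 0.15), and the mitochondrial protease Lonp1 by −0.095 (SE 0.077).

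Between arrays, 6 of these 39 genes had r of 0.8 or more with Hspa1b. Ahsa2, an HSP90 activator, had r = 0.97 and rho = 0.98, and r was 0.93 without control 4 and TCDD 3. For Hsph1, whose promoter element is printed above, r was 0.94, rho 0.98 and r without those arrays 0.85, with levels of −2.43, −2.16, −2.40 and −1.35 in control and −2.41, −2.01, −1.31 and −2.47 in TCDD arrays. Hsp90aa1, the inducible HSP90, had r = 0.94 (0.85 without them) and Ppid, an HSP90-bound cyclophilin, r = 0.94 (0.92 without them). These 4 passed the adjustment on r, with exact permutation p adjusted to 0.0068, 0.0058, 0.016 and 0.0068, and on rho to 0.012, 0.012, 0.059 and 0.012. Chordc1 and St13 had r = 0.88 and 0.81 (adjusted 0.060 and 0.13), which were 0.54 and 0.24 without control 4 and TCDD 3.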

How the data were processed

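Cy3-labelled cRNA of each sample went onto 1 array, per the labels' protocols. The deposited linear intensities came from Agilent Feature Extraction 10.7.1.1 with background subtracted, per the file headers; the headers name rn4 for probe coordinates. From them, log2 processed intensity minus each array's 75th percentile was computed. Outlier spots were left out, spots of a probe averaged, probes well above background on at least 4 of 8 arrays kept, and for each gene name in the file the kept probe with the highest mean was used. Of 11 members with several kept probes, 6 had probes of both signs. Groups were compared with limma 3.58.1 (R 4.3.3), tested on simulated data, with Benjamini-Hochberg adjustment at 0.05. Single genes were also tested by exact permutation.

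The members and lists were chosen with earlier results of these data known. Genes named were every called member, those with non-overlapping groups, a fixed list of well-known members and some of the extremes of each role, which the rule allowed; related genes were the 6 with the smallest p, and those following Hspa1b, which were added later. Nothing says that samples of a group were prepared as independent experiments, so the p-values reflect the spread over these samples, which may be technical. Number of arrays limits the precision. Alternatives covered background correction, normalization, probe filters, variance models, the deposited table, which holds linear intensities scaled by the authors, a replicate block and leaving out arrays. Same-numbered samples did not deviate together (r −0.096 to −0.02). This gave no sign of pairing by number but cannot exclude it.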

Additional observations from a re-analysis of the deposited data

Results flagged for a closer look

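For each gene whose difference or likeness is given, the highest and lowest of the 4 samples of a group were set against Dixon's 95% critical value for the gap to the nearest sample divided by the group's range. Of 86 groups, 6 held such a sample (6.98%), and chance gives about 5%. Control 4 was apart for Dnajb2 (0.938), Hspa9 (0.862) and Dnajc5 (0.836), each time above the other control arrays. Control 3 was below the others for Hspb1 (0.873). TCDD 1 was above the others for Dnajc22 (0.874) and below them for Cct6b (0.857).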

How the results depend on the processing

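No member was called by limma in any of the 21 alternatives run, and the smallest adjusted p of a member lay between 0.21 and 0.58. Over all genes, where 10 were higher and 4 lower, the counts were 0 and 0 with normexp and quantile normalization, 0 and 1 with quantile normalization and with the deposited table, 5 higher with median centring, 2 and 2 with a trended robust variance, 20 and 10 with array weights, 1 and 1 without both control 4 and TCDD 3 (chosen after seeing the data), and 0 to 9 higher and 0 to 3 lower when 1 array was left out. Without control 3 or TCDD 1 no gene was called in either direction. At an unadjusted p under 0.05 the alternatives gave 754 to 1592 higher and 406 to 846 lower genes. With the replicate block, fitted although nothing states that the numbers pair the samples, 0 genes were higher and 0 lower, and no member was called. A slide block was not run, since each slide holds 1 group. Members with r of 0.8 or more with Hspa1b, 8 as reported, were 6 with quantile normalization and 5 with median centring and with the deposited table. They were 8 to 15 when 1 array was left out, with 15 without TCDD 4. Besides Dnajc5, Hspa8 fell to r = 0.75 with quantile normalization and in the deposited table. Bag3 and Cct3 fell to 0.79 and 0.78 with median centring. Dnaja1 and Dnajb2 kept r at or above 0.82 and 0.90 under every setting run.

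Of 754 alternative values for 36 named genes, 714 kept their direction and 40, in 12 genes, turned it; none of these genes was called. Hsf2 became −0.0079 with normexp and quantile normalization, −0.0051 with quantile normalization, −0.021 with median centring and −0.0067 in the deposited table. Hsf4 became −0.07, −0.0013 and, in the deposited table, −0.00024 under the first, second and last of these. Bag3 became −0.017 with median centring. Array weights gave −0.076 for Hspb3, 0.023 for Cct3 and 0.013 for Dnajb2, and leaving out both control 4 and TCDD 3 gave −0.12 for Hspb3. When 1 array was left out, the difference ranged from −0.41 to 0.92 for Hspa1b, −0.21 to 0.6 for Hsf4, −0.16 to 0.55 for Hspb3, −0.017 to 0.17 for Hspb1, −0.045 to 0.15 for Bag3, −0.14 to 0.064 for Cct3, −0.12 to 0.027 for Dnajb2, −0.088 to 0.058 for Bag1, −0.079 to 0.0099 for Hspd1, −0.074 to 0.011 for Hsf1, −0.036 to 0.035 for Dnajc7 and −0.002 to 0.04 for Hsf2. The causes of these moves were not tested. Dim probes, such as those of Dnajb8, Hsf4, Hspb3 and Cct6b, give the least certain values.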
